A study of Mus musculus with 2 samples.

Results

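Rab GTPases are small GTP-binding proteins that give each membrane compartment of a cell its traffic rules. Exchange factors load a Rab with GTP, the active Rab recruits effectors such as motors and tethers, and GTPase-activating proteins of the TBC family switch it off. Prenylation anchors the protein in membranes, and GDI proteins take it back to the cytosol. In T cells Rabs are known for recycling the antigen receptor through endosomes and, in cytotoxic cells, for docking lytic granules.

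The family was taken as all array probes whose gene name in the scanner files is Rab followed by a number and at most a letter and a digit, which leaves out proteins that only interact with Rabs. This gave 56 genes with 111 probes, of 27597 genes and 41174 probes on the array. RNA came from naive CD8+ T cells, sorted as CD44low CD25low, of the C57BL/6 strain. The knockout group was Bcl11bF/F/dLck-iCre, in which an iCre driven by the distal Lck promoter excises floxed alleles of the zinc-finger factor Bcl11b in T cells. The other group was wild type, and the labels name no Cre or floxed allele for it. The labels give neither age nor the number of mice behind a sample. Each of 2 two-colour arrays, called biological replicates, held the knockout sample labelled with Cy5 beside the wild-type sample labelled with Cy3, so n = 2 ratios and 2 channels per genotype. No array had the dyes swapped, so a dye effect and the knockout cannot be told apart.

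No Rab gene passed the test of knockout against wild type. A Rab gene was called measured if a probe was well above background in the same genotype on both arrays, which held for 33 of the 56 genes; the brightest such probe stood for its gene. All values below are log2 ratios of knockout over wild type unless a channel level is named. Over the 33 genes 0 were called higher and 0 lower (limma, adjusted p 0.05 over all genes), where 1.24% and 0.248% of 9273 measured genes were called. At an unadjusted p under 0.05, 6 Rab genes were listed (18.2%), against 9.75% of all genes: Rab6a, Rab12, Rab14, Rab1a, Rab5a and Rab18. All 6 were past 2-fold on array 1 and none on array 2, and Rab6a, Rab12, Rab14 and Rab5a had a wild-type channel not well above background on array 1, so they passed the filter through the knockout channel, where they were high. With wild type required above background on both arrays the share was 7.69% of Rab genes against 9.48% of all genes, and with both channels required 8.33% against 10.1%. It was 18.2% against 18.2% with median centring, 6.06% against 9.72% with scaled log ratios and 3.57% against 8.98% with no filter. No Rab gene was listed with the scanner log ratio, the value table or the filter on mean intensity, where 6.19%, 6.14% and 4.92% of all genes were. The Rab share was above that of all genes in the other 5 analyses, at 18.2% against 9.55% with an offset of 0, 18.2% against 10.9% with no background subtraction, 12.1% against 9.94% with the mean of kept probes, 18.2% against 13.03% with file gene names and 12.8% against 10.2% over every kept probe. In these bulk samples less RNA per cell and fewer cells of a type cannot be told apart. When genes were grouped by the names in the scanner files, 2 Rab genes were called higher, Rab6a (adjusted p = 0.0274, limma) and Rab12 (adjusted p = 0.0279, limma), with the same mean ratios of 1.52 as before. Their adjusted p ran from 0.0274 and 0.0279 to 0.636 over the 11 other analyses that tested them, and passed in that 1 only. The fit then estimated a smaller variance shared by all genes, with prior degrees of freedom of 2065 in place of infinite, and the call rate over all genes was 2.78% in place of 1.49%.

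The test gave every gene the same standard error, 0.50, whatever its own spread, so Rab12 (SD 2.18 between arrays) and Rab3d (SD 0.05) were judged alike. A mean ratio had to reach 1.68 in size to pass. The interval of each Rab gene was therefore wide. No interval excluded a 2-fold difference in both directions, and 25 of the 33 excluded a 3-fold difference in both. These bounds rest on that shared standard error and on the normalisation used, and they do not show that a response of the family was absent.

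The arrays differed in how far the Rab genes spread. On array 1 the ratios ran from -1.17 to 3.07, and 9 of 33 genes were past 2-fold (27.3%, against 27% of all measured genes on that array). Of these, 8 were higher (24.2%, against 21.1%) and 1 was lower (3.03%, against 5.9%). On array 2 the ratios ran from -0.38 to 0.55 and 0 Rab genes were past 2-fold, against 2.84% of all genes. The median Rab ratio was 0.17 on array 1 and 0.10 on array 2, beside 0.05 and -0.01 over all genes. Ratios were above 0 on both arrays for 13 genes (39.4%, against 30.9% of all genes) and below 0 on both for 8 (24.2%, against 30.8%), and the other 12 had opposite signs. None was past 2-fold the same way on both arrays, where 1.35% of all genes were. With median centring of the arrays instead of loess, the typical gene stood at 0.68 and not 0.04, the Rab median at 0.76, and 10 of the 12 Rab genes with a mean below 0 turned positive. Rab20 and Rab4a were the exceptions.

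**Figure D1:**
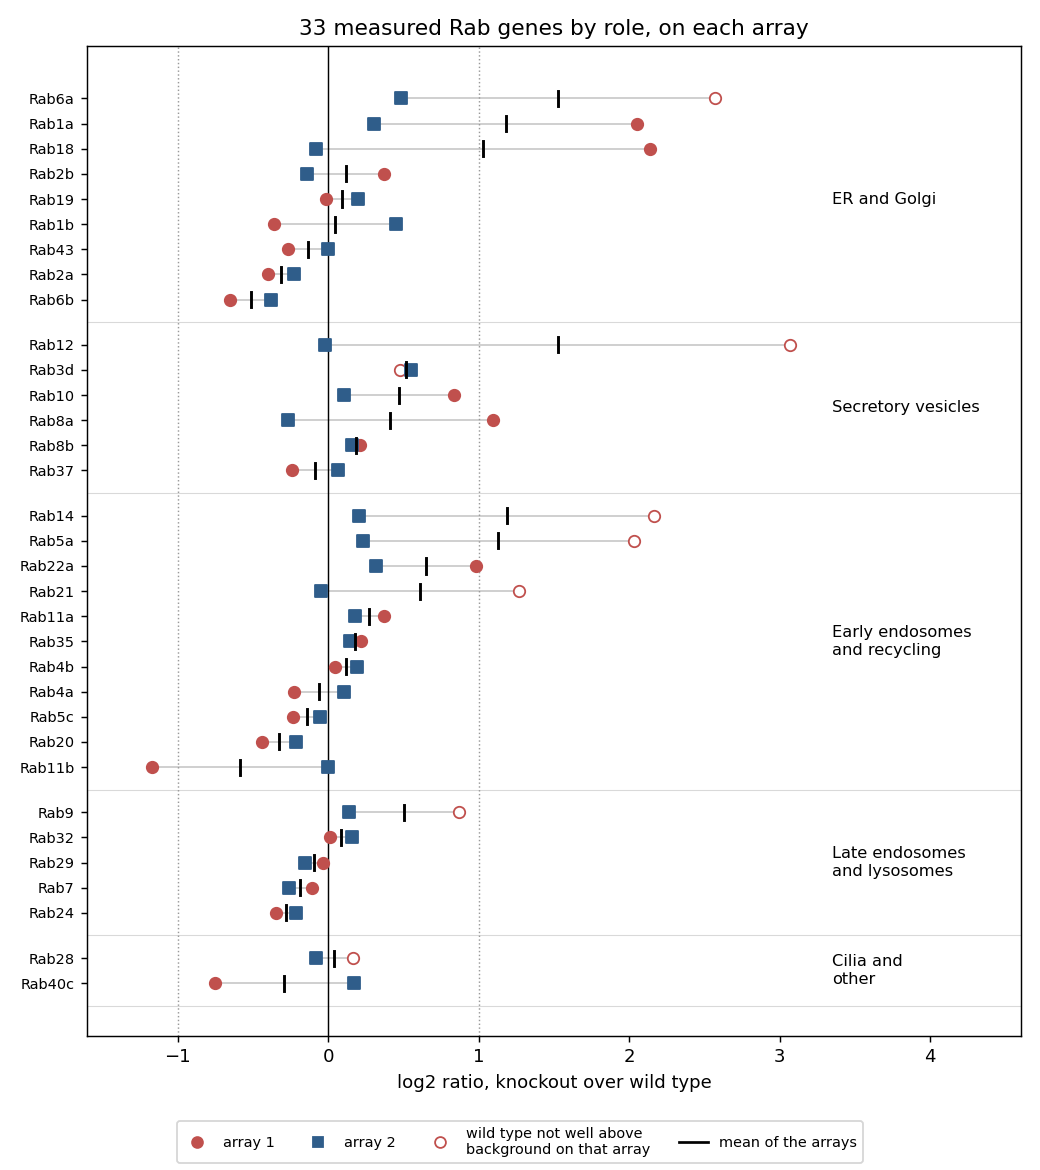
Log2 ratio of knockout over wild type for the 33 measured Rab genes, grouped by role, with array 1 as circles, array 2 as squares and a bar at their mean; open symbols mark arrays where wild type was not well above background, and dotted lines mark 2-fold. Array 1 spans -1.17 to 3.07, while array 2 stays between -0.38 and 0.55.

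**Figure D2:**
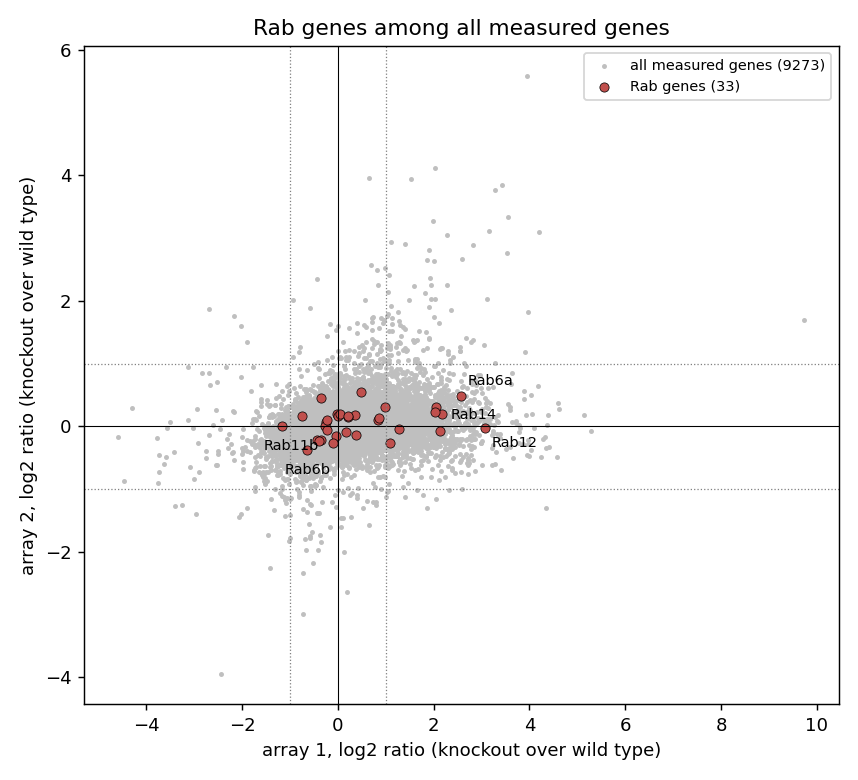
Log2 ratio on array 1 (x axis) against array 2 (y axis) for 9273 measured genes in grey and 33 Rab genes in red, with dotted lines at 2-fold. Rab genes spread along array 1 only, and none lies outside the dotted lines on array 2.

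High ratios on array 1 went with dim wild-type channels there, but the filter builds part of this in. A gene too dim in wild type on array 1 could be kept only through the knockout, detected on both arrays. Its array 1 ratio also has the dim channel as denominator. The split below thus reflects selection as well as the genes, and cannot separate the 2 on array 1. On that array 31 of the 111 Rab probes were well above background in wild type and 59 in the knockout, whereas on array 2 the counts were 51 and 44. Of the 33 genes, 8 had a wild-type channel not well above background on array 1, and their array 1 ratios had a median of 1.65. Of the 8, 5 were over 2-fold higher (62.5%, against 62.5% of all genes with such a wild-type channel). On array 2 the same 8 genes had a median of 0.17. The 25 genes whose wild-type channel was well above background on array 1 had a median there of -0.03. Of the 25, 3 were over 2-fold higher (12%, against 11.3% of all genes so detected). All measured genes split the same way, with medians of 1.21 and -0.19. The wild-type level of these 8 genes was thus measured on array 2 only. The part of wild-type detection in the Rab ratios was not tested. Of all 43379 gene spots, 10739 were well above background in wild type and 17276 in the knockout on array 1. On array 2 the counts were 13446 and 10955, so Rab probes and all spots shifted the same way. Negative control spots were far brighter than the local background (medians of 985 to 1865 against 35 to 51.5). Bcl11b itself was at -1.45 and -1.73 (mean -1.59; adjusted p = 0.075, limma) and a second probe at -0.35 and -2.32. Its mean was below 0 in each analysis, and where its probes lie relative to the deleted part was not checked.

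Rabs of the endoplasmic reticulum and Golgi held the highest mean, that of Rab6a. Rab6a directs traffic from the Golgi back to the endoplasmic reticulum and outwards to the cell surface. Its probe lies on mm8 chromosome 7 from 100515214 to 100515273 in the array design, for which no exon map was used here. Its knockout channel stood at 13.06 on array 1 and 12.89 on array 2, as log2 normalised intensity, and its wild-type channel at 10.49 and 12.41. Knockout values were above wild type with no overlap, but the wild-type value of array 1 was not well above background. The ratios were 2.57 and 0.48, a mean of 1.52 ± 1.48 (SD, n = 2; 95% interval 0.55 to 2.50; adjusted p = 0.1, limma). A second Rab6a probe, left out because it was well above background only in the knockout on array 1, gave 0.30 and 0.19.

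The promoters of Rab6a, of the early endosome gene Rab5a and of Rab6b are shown because they belong to the gene with the highest mean, to the gene read by the most spots, and to the closest relative of Rab6a, whose mean was the lowest of those that kept 1 sign across arrays. Each line is the 250 bases before the RefSeq start (GRCm38.p6, plus strand), with CpG dinucleotides in capitals. They lie at chr7:100607336-100607585, chr17:53478984-53479233 and chr9:103111824-103112073.
Rab6a: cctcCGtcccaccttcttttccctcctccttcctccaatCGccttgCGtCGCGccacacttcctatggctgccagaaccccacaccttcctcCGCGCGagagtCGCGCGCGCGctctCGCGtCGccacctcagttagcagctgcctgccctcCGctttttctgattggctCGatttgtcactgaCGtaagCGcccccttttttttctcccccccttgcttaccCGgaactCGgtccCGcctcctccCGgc
Rab5a: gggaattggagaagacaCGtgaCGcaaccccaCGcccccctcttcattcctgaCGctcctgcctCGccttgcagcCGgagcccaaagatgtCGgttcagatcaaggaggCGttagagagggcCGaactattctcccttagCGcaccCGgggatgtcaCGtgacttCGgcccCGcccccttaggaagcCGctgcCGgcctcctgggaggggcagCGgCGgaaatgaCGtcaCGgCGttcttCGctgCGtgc
Rab6b: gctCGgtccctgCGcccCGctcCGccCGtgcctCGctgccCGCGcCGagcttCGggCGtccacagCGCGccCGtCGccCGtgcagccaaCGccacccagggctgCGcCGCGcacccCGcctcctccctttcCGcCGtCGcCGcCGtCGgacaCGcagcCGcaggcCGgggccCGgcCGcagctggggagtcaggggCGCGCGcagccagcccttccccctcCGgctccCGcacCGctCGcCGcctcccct
These windows held 24, 23 and 40 CpG dinucleotides. RefSeq promoters were found for 47 of the 56 Rab genes, with 59 windows in all. A ratio of observed to expected CpG above 0.6 was present in 37 windows (62.7%), against 34.0% of 32851 windows of all genes, and the letters TATAAA on either strand in 3 (5.08%), against 12.4%. The CpG count of the 59 Rab windows had a median of 15 and ran from 2 to 42, against a median of 6 over all windows. The 3 windows shown thus lie above the Rab median. No array value bears on these promoters directly, and the counts describe sequence only.

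The other Rabs of this compartment lay between Rab6a and Rab6b. Rab1a, which drives transport from the endoplasmic reticulum to the Golgi, was at 13.05 and 12.88 in the knockout and 11.00 and 12.58 in wild type (log2 levels on arrays 1 and 2). Its knockout values were above wild type with no overlap, and both genotypes were well above background on both arrays. The ratios were 2.05 and 0.31, with a mean of 1.18 ± 1.23 (SD, n = 2; adjusted p = 0.324, limma). Its paralogue Rab1b was at -0.36 and 0.45, and a second Rab1b probe gave 0.29 and 0.45. Rab18, a Rab of lipid droplets and the endoplasmic reticulum, was at 2.14 and -0.08, with a second probe at 1.17 and -0.11. Rab2a, which acts between the Golgi and the endoplasmic reticulum, was at -0.40 and -0.23, and turned positive with median centring (0.60). A second Rab2a probe, not kept, gave 2.38 and 0.04, so the probes opposed each other on both arrays. That probe was well above background only in the knockout on array 1 and in wild type on array 2.

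Rab6b was at 11.24 and 10.78 in the knockout and 11.89 and 11.16 in wild type as log2 levels, so the groups overlapped. Its ratios were -0.65 and -0.38 (mean -0.51 ± 0.19, SD, n = 2; 95% interval -1.49 to 0.46). A second Rab6b probe, detected in all channels except wild type on array 1, gave 0.79 and 0.18, so the probes opposed each other on both arrays. The mean of the brighter probe also turned positive with median centring (0.22). The remaining measured members were Rab2b (0.37 and -0.14), Rab19 (-0.01 and 0.20) and Rab43 (-0.27 and -0.002). In this compartment 9 of 16 genes were measured, 2 were above 0 on both arrays and 3 below.

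Rabs of early endosomes and recycling were measured in 11 of 15 genes, with a median of 0.22 on array 1 and 0.14 on array 2. Rab5a, which drives fusion of early endosomes, was read by a probe printed 10 times per array, on mm8 chromosome 17 from 52972266 to 52972325. Its 10 spots on array 1 ran from 1.85 to 2.15 (SD 0.09), and the 9 unflagged spots on array 2 from 0.17 to 0.29 (SD 0.05). The arrays therefore differed by far more than spots within an array. Its levels were 12.28 and 11.95 in the knockout and 10.24 and 11.72 in wild type, with no overlap and with wild type not well above background on array 1. The mean ratio was 1.13 ± 1.28 (SD, n = 2; adjusted p = 0.366, limma). Its other probes were not measured.

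Rab14, which moves cargo between endosomes and the Golgi, was at 11.92 and 11.47 in the knockout and 9.76 and 11.27 in wild type as log2 levels, without overlap. Wild type was not well above background on array 1. The ratios were 2.17 and 0.20 (mean 1.19 ± 1.39, SD, n = 2; adjusted p = 0.317, limma), and its other kept probes gave 0.78 and 0.23, and 0.64 and -0.22. Rab22a, another early endosome Rab, was at 0.98 and 0.31, also without overlap. Rab21, which carries integrins, was at 1.27 and -0.04.

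The classical recycling Rabs had ratios on both sides of 0. Rab11a, of the slow recycling endosome, was at 0.37 and 0.18, with a second probe at 0.62 and 0.42. Rab11b was at -1.17 and 0.002 (mean -0.58), the lowest mean of the family, and its second kept probe gave -0.76 and 0.11, while a probe not kept gave 1.35 and 0.03. Its wild-type level was 13.87 on array 1 and 12.61 on array 2, while the knockout was at 12.71 and 12.61. Without array 1 its mean was above 0, and with median centring it was 0.31. Rab35, a recycling Rab placed at the T cell synapse, was at 0.22 and 0.14, from levels of 13.91 and 13.65 in the knockout and 13.69 and 13.51 in wild type. Rab4a and Rab4b, of fast recycling, were at -0.23 and 0.10, and at 0.05 and 0.19. Rab5c was at -0.23 and -0.06 and turned positive with median centring (0.76).

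Rab20, a Rab of phagosomes and macrophage endosomes, was the 1 measured gene whose knockout values lay below wild type with no overlap, where 20.8% of all genes did so. Its levels were 9.93 and 9.90 in the knockout and 10.37 and 10.12 in wild type, and the knockout was well above background on array 1 only. The ratios were -0.44 and -0.21 (mean -0.33 ± 0.16, SD, n = 2; adjusted p = 0.931, limma). On the other side 7 Rab genes lay above wild type with no overlap (Rab6a, Rab14, Rab1a, Rab5a, Rab22a, Rab3d and Rab9), which is 21.2% of the 33 measured and the same share as among all genes (21.2%).

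**Figure D3:**
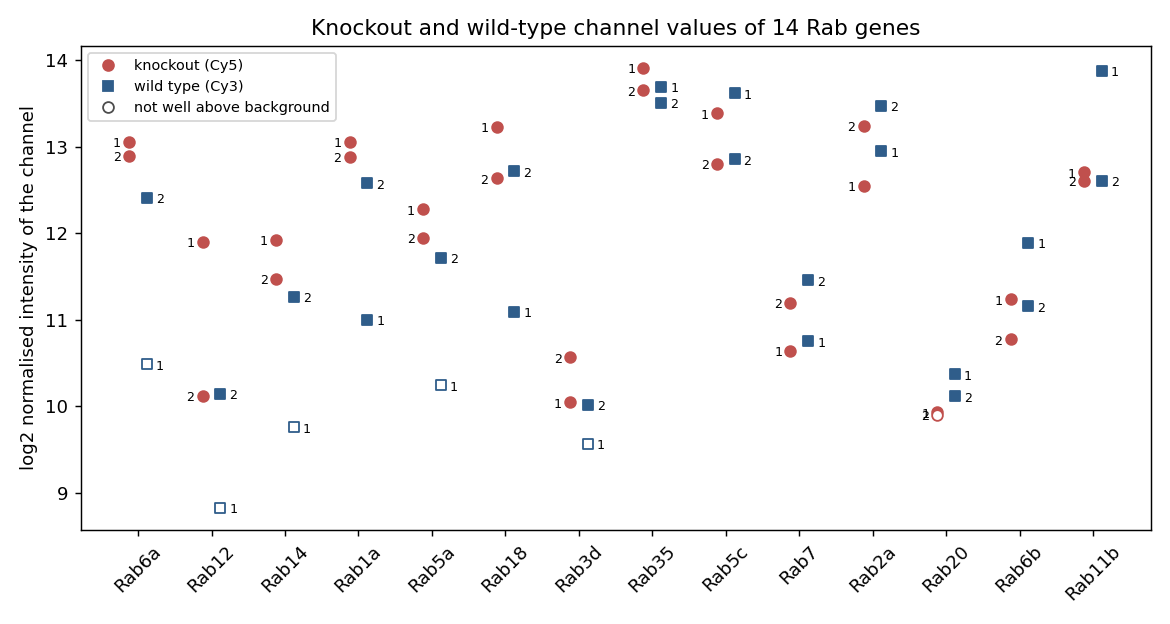
Log2 normalised intensity of the knockout (circles) and wild-type (squares) channels for 14 Rab genes, numbered by array; open symbols were not well above background. For Rab6a, Rab12, Rab14, Rab1a, Rab5a and Rab18 the wild-type value of array 1 is the lowest of the 4, and heights of different genes come from different probes and cannot be compared.

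Of the secretory Rabs, 6 of 14 were measured. Rab12, placed in this list but best known for sending transferrin receptor to lysosomes, had the highest ratio of the family on array 1, 3.07, and -0.02 on array 2. Its levels were 11.90 and 10.12 in the knockout and 8.83 and 10.14 in wild type, so the groups overlapped and wild type was not well above background on array 1. The mean was 1.52 ± 2.18 (SD, n = 2; adjusted p = 0.1, limma). It was singled out after its values were seen, as was Rab18. The other 2 Rab12 probes were not well above background in any channel and gave 0.24 and 0.08, and 0.49 and -0.08.

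Rab3d, which sits on secretory granules, had nearly the same ratio on both arrays. Its values were 0.48 and 0.55 (mean 0.51 ± 0.05, SD, n = 2; 95% interval -0.46 to 1.49; adjusted p = 0.88, limma), with wild type not well above background on array 1. A second probe, not kept, gave 0.07 and 0.32. Rab8a and Rab10, which carry vesicles from the Golgi and endosomes to the plasma membrane, were at 1.09 and -0.27 and at 0.84 and 0.11. A second Rab8a probe gave 0.98 and -0.01, and the other kept Rab10 probes 0.79 and 0.15, and 0.78 and 0.41. Rab8b was at 0.21 and 0.16, with a second probe at 0.78 and 0.42. Rab37, of secretory granules, was at -0.24 and 0.07, and its second probe at 0.58 and -0.004. With median centring Rab37 was positive (0.65).

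Rab27a, which docks lytic granules at the membrane of cytotoxic cells, was not measured. Of its 2 probes, 1 was detected only in the wild-type channel of array 2 and gave 1.24 and -0.90, and the other, above background in no channel, gave 0.22 and 0.16. Its relative Rab27b, abundant in platelets and mast cells, had 3 probes, none of them well above background in any channel. These arrays therefore give no usable ratio for the granule-docking Rabs of these naive cells.

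Late endosomal and lysosomal Rabs had 5 of 7 genes measured, with means from -0.28 to 0.50. Rab7, which directs late endosomes to lysosomes, was at -0.11 and -0.26, from levels of 10.64 and 11.20 in the knockout and 10.75 and 11.46 in wild type that overlapped. A second Rab7 probe, whose wild-type channel was too dim on array 1, gave 1.50 and 0.24, so the mean of both probes was positive (0.34). Rab9, which returns receptors from late endosomes to the Golgi, was at 0.87 and 0.14, with no overlap and with wild type not well above background on array 1. Rab24, linked to autophagy, was at -0.35 and -0.22, while a second Rab24 probe, well above background in no channel, gave 0.60 and 0.40. Rab29 (Rab7l1 in the files), a Golgi and lysosome Rab that recruits the kinase LRRK2, was at -0.03 and -0.15. Rab32, of lysosome-related organelles, was at 0.01 and 0.16. With median centring Rab7, Rab24 and Rab29 were positive. Of the cilia and less studied group, Rab28 was at 0.17 and -0.08 and Rab40c at -0.75 and 0.17.

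Probes of the same gene often disagreed. Of 12 Rab genes with more than 1 kept probe, 8 had probes of the same sign on array 1, 8 on array 2 and 7 on both. Within a gene the probes spanned a median of 0.61 on array 1 and 0.25 on array 2, and up to 1.61 and 0.56. Replicate spots had a median SD, over the 245 probes printed 10 times, of 0.10 on array 1 and 0.07 on array 2. A span and an SD are different measures and cannot be compared directly. As a range, the spots of the Rab5a probe ran from 1.85 to 2.15 on array 1 and from 0.17 to 0.29 on array 2. Between arrays, the median SD of a Rab gene was 0.22 against 0.38 for all genes.

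**Figure D4:**
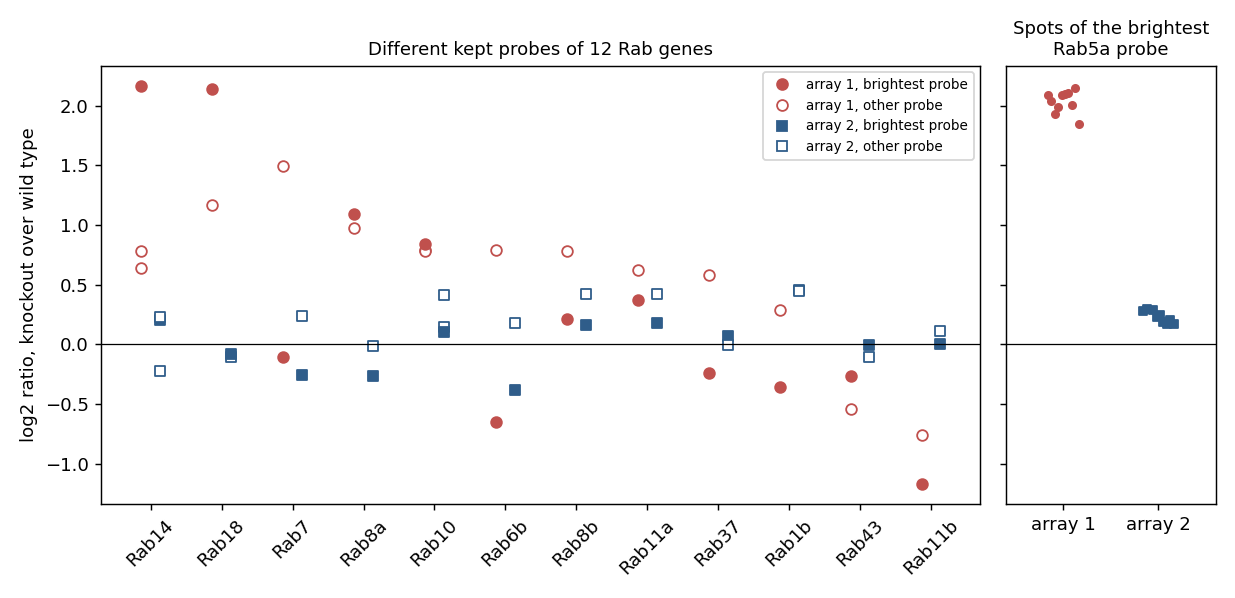
Left, log2 ratio of every kept probe for the 12 Rab genes with more than 1, with array 1 as circles and array 2 as squares and the brightest probe filled. Right, spots of the brightest Rab5a probe, which lie between 1.85 and 2.15 on array 1 and between 0.17 and 0.29 on array 2.

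Members without a measured probe numbered 23. In 18 of them no probe was well above background in any channel, namely Rab3b, Rab3c, Rab5b, Rab9b, Rab13, Rab15, Rab17, Rab25, Rab26, Rab27b, Rab30, Rab31, Rab33a, Rab33b, Rab34, Rab36, Rab38 and Rab40b. The group includes Rabs best known from other cells, such as the neuronal Rab3b and Rab3c, the epithelial Rab17 and Rab25 and the melanocyte Rab38. The other 5 were above background in scattered channels: Rab23 and Rab39b in the knockout on array 1, Rab27a and Rab39 in wild type on array 2, and Rab3a in both of these. No statement on the genotype can be made for them. Rab7b, Rab42 and Rab44 carry clone names in the files and fall outside the rule. Of these, Rab7b was measured, at 0.36 and 0.44.

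Regulators and effectors of the Rabs were called at a rate near that of all genes. Of 128 regulators and effectors listed, 75 were measured, 1 rose and 0 fell (1.33%, against 1.49% of all genes). The median was 0.02 on array 1 and 0.004 on array 2. On array 1, 20 of the 75 were past 2-fold, where 27% of all genes were, and on array 2, 0, where 2.84% of all genes were.

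The gene that rose was Rab11fip1, an effector that couples Rab11 to recycling endosomes. Its levels were 12.10 and 11.08 in the knockout and 9.22 and 10.53 in wild type, with wild type not well above background on array 1. The ratios were 2.89 and 0.56 (mean 1.72 ± 1.65, SD, n = 2; adjusted p = 0.039, limma). The second Rab11fip1 probe gave 0.14 and 1.37, so the arrays were ordered the other way round. With the mean of both probes it was at 1.24 (adjusted p = 0.214, limma). In 11 of 13 other analyses no regulator was called higher, and 2 of those 11, which require wild type above background on both arrays, did not test the gene. Its adjusted p ran from 0.00782 to 0.636 over the analyses that did. The other 24 of 25 measured effectors did not pass. Among them Bicd2, a dynein adaptor for Rab6, was at 1.55 and 0.67, Sytl3, a Rab27 effector, at 0.91 and 0.70, and Appl1, an effector of Rab5, at 1.31 and 0.22. In all 3 the wild-type channel of array 1 was also too dim to be called above background.

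No exchange factor passed (24 measured, median of the means 0.05). Dennd1a, which activates Rab35, was at -1.21 and -0.38. Rgp1, a subunit of the Rab6 exchange factor, was at -0.86 and -0.51, and its partner Ric1 at 0.74 and 0.42. Hps4, of the complex that activates Rab32 and Rab38, was at -1.19 and -0.02. With median centring Rgp1 (0.22) and Hps4 (0.31) were positive and Dennd1a was not (-0.08). No TBC protein passed either (20 measured, median 0.10). Tbc1d8b (1.77 and 0.63) and Tbc1d25 (1.19 and 0.57) were not well above background in wild type on either array. Tbc1d2b was at 1.35 and 0.32 and Rabgap1l at 1.04 and 0.26, both with wild type too dim on array 1.

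Prenylation and recycling of Rabs likewise had 0 of 6 measured genes past the test (median -0.0002). Rabac1, a membrane receptor for prenylated Rabs, was at -1.89 and -0.40. The catalytic pair of geranylgeranyl transferase was at -0.91 and -0.02 (Rabggta) and at -0.13 and -0.49 (Rabggtb), and both turned positive with median centring, unlike Rabac1 (-0.08). Rabif, a guanine nucleotide release factor, was at 0.39 and 0.23, with wild type again too dim on array 1.

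Some markers of other cells were called higher in the knockout, where 1.24% of all genes were. All 7 CD8 T cell markers were well above background in every channel, and none of the 7 passed. Of 8 myeloid markers, 5 were well above background in the knockout on each array, 0 in wild type on array 1 and 2 in wild type on array 2, and 3 rose, namely Adgre1 (4.21 and 3.09), Csf1r (2.82 and 2.89) and Lyz2 (4.03 and -0.38). Itgam, Cd68 and Cybb were not well above background in any channel. Of 6 NK cell markers 3 rose (Fcer1g, Klrb1c and Tyrobp), and Itgax rose among 4 dendritic markers. No B cell, CD4 T cell, platelet or erythroid marker passed, and the 4 mast cell or basophil markers were above background nowhere. Other cells in the samples and expression of these genes by the T cells themselves cannot be told apart in bulk RNA. The part of either in the Rab ratios was not tested.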

How the data were processed

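Per the labels' protocols, RNA was amplified with Agilent reagents and labelled by the Kreatech ULS method. Per the submitters' processing notes, the software was Feature Extraction 9.5.3.1 of Agilent. The deposited files give the mean signal and median local background of each spot and channel as linear intensity, not normalised, per the file headers. They also give a log10 ratio of red over green, made by the authors' scanner software, and the deposited value table repeats that log10 ratio within 0.005 at every spot, with column medians of 0 and 0.

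From the intensities, limma 3.58.1 in R 4.3.3 computed log2 ratios: normexp background correction (offset 50), loess within each array with control and flagged spots at weight 0, and the mean over spots of a probe. Channel levels were taken after Aquantile normalisation. Gene names were updated through RefSeq (GRCm38.p6), by accession for 93 of the 111 Rab probes. Mean ratios of 9273 genes were compared with 0 by limma's moderated test (two-sided), and p-values were adjusted by Benjamini-Hochberg with a threshold of 0.05. The estimated prior degrees of freedom were infinite. Probe positions come from the array design, in mm8. The number of arrays limits the precision, and the labels do not say whether replicates came from separate mice. The p-values thus rest only on differences between these arrays, through a variance shared by all genes and not a gene's own spread.

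The code was tested on simulated ratios. With equal normal noise in every gene, as the fit assumes, large planted changes were nearly all recovered. With noise resampled from the differences between these arrays, recovery was erratic and in some runs nil, so the first version of this test failed and the version with equal noise was added after that. The passing test therefore checks the code, and does not show that the fit would find changes in data of this kind.

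The members, the gene lists and the alternatives were chosen with earlier results of these data known. Array values are given for Rab genes passing the test and the 6 highest and 6 lowest means of the same sign on both arrays. They are also given for measured Rabs of known roles in blood cells, and for other kept probes of all these genes. Of the probes not kept, only some are given. Up to 4 genes per list of regulators follow the same order. Other Rab genes with values were chosen after these were seen. A planned description of protein features was not run.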

Additional observations from a re-analysis of the deposited data

How the results depend on the processing

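Knockout and wild type share each array, so every ratio is already a pair and the reported test is a paired one. Array weights came out equal, as they must with 2 arrays and a single mean per gene, so they say nothing on which array is more reliable. The count of Rab genes called stayed at 0 in each direction in every analysis except the one with file gene names, which called 2 higher; 13 analyses other than the reported one had a test. The reported counts over all genes were 115 higher and 23 lower. These became 27 and 8 with no background subtraction, 63 and 1 with median centring, 25 and 14 with both channels above background on both arrays, 221 and 37 with file gene names, 28 and 3 over every kept probe, and 63 and 37 with wild type above background on both arrays (chosen after seeing the data). They were 0 and 0 with the scanner software log ratio, the deposited value table, log ratios scaled between arrays, no filter, or a filter on mean intensity; at an unadjusted p under 0.05 these 5 listed 574, 569, 901, 2478 and 745 genes (limma). The count of regulators called higher was 1 as reported, with an offset of 0 and with file gene names, and 0 in the other 11. The median Rab ratio was 0.12 as reported, and the median over all genes, given here in brackets, 0.04. The Rab median was 0.76 with median centring (0.68), 0.20 with the scanner software log ratio (0.04) and 0.20 with the value table (0.04). It was 0.050 without a filter (-0.0004), 0.18 with the mean of kept probes (0.04) and 0.27 over every kept probe (0.06). With wild type above background on both arrays it was 0.067 (-0.09). Leaving out array 1 gave 0.10 (-0.01) and leaving out array 2 gave 0.17 (0.05). Median centring reversed the mean of Rab5c (0.76), Rab2a (0.60), Rab11b (0.31), Rab24 (0.58), Rab29 (0.76), Rab37 (0.65), Rab6b (0.22), Rab7 (0.36), Rab40c (0.28) and Rab43 (0.0066). Rab7 also reversed with no background subtraction (0.56), log ratios scaled between arrays (0.74) and the mean of kept probes (0.34), and Rab37 with the mean of kept probes (0.10). On leaving out an array, Rab11b ran from -1.17 to 0.0015, Rab8a from -0.27 to 1.09, Rab37 from -0.24 to 0.067 and Rab4a from -0.23 to 0.10. Without array 1 the sign also changed for Rab12, Rab18, Rab21, Rab2b, Rab28 and Rab40c, which makes 10 genes, and without array 2 for Rab19 and Rab1b. The cause of these shifts was not tested.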
